A study of Mus musculus with 2 samples.

Results

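The respiratory chain and the mitochondrial ribosome were examined in luminal cells of the mouse mammary gland that were sorted by Tbx3 promoter activity. The members are the genes whose symbol names a subunit of complexes I to IV, of the ATP synthase or of the mitochondrial ribosome. Added to these are the Ndufaf and Cox10 to Cox19 assembly factors and the cytochrome genes Cycs and Cyc1. The members number 155 genes of 13869 in the table, 91 of the respiratory chain and 64 of the mitochondrial ribosome. RNA came from luminal cells high for Venus (Venus High) and low or negative for Venus (Venus Low), 200000 of each, sorted from pooled mammary cells of 3 virgin Tbx3-Venus-KI mice of 5 months on an FVB background. All of these mice carry 1 Tbx3 allele in which Venus, a yellow fluorescent protein, is expressed in place of Tbx3, so both populations are heterozygous for Tbx3 and Venus reports activity of the locus. The luminal gate used CD24 and CD49f, after removal of dead, CD45+ and stromal cells. Each population was hybridized to 1 Affymetrix mouse array, so there are no replicates, no test was possible, and the number of arrays limits the precision.

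Mitochondria make most of the ATP of a cell by passing electrons from NADH and succinate along complexes I, II, III and IV to oxygen, while protons are pumped across the inner membrane and drive the ATP synthase. A few core subunits of complexes I, III and IV and of the ATP synthase are encoded by mitochondrial DNA and translated by the mitochondrial ribosome. All of the ribosome's proteins, and all other subunits, are encoded in the nucleus, translated in the cytosol and imported. The genes described here are the nuclear ones.

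Values are array signals on the log2 scale, and a difference is the Venus High value minus the Venus Low value. The table used here has a floor at a signal of 10 and lists 0 probe sets as lower in Venus High cells, so every difference is 0 or above by construction. What may be lower there is not analysed here. Of 3847 genes that reached a signal of 100 on either array, the median difference was 0.46. Median centring here takes each array's median over the 5889 probe sets that reached this signal on either array. These medians were 8.21 (Venus High) and 7.55 (Venus Low), so centring would lower every difference by 0.66. Over all probe sets, most of them at the floor on both arrays, both medians would be the floor and centring would shift nothing. The members are therefore described relative to the median difference of 0.46. The spread between probe sets of a gene, as a pooled SD, was 0.31 over 1062 genes and 0.16 over the 46 members with several probe sets that reached a signal of 100. In bulk RNA, a smaller share of cells with a transcript and less of it per cell cannot be told apart. As a check of the labels, 4 of 6 luminal markers had a probe set and all 4 reached a signal of 100, with differences between 0.09 (Krt8, 13.22 in Venus High and 13.13 in Venus Low) and 0.98 (Krt19, 12.94 in Venus High and 11.96 in Venus Low). Tbx3 had log2 signals of 8.72 (Venus High) and 3.62 (Venus Low). It is 1 of 7 hormone-sensing markers, of which 5 were in the table with differences between 2.98 (Esr1) and 7.95 (Cited1). Of the other markers, 4 of 6 basal, 3 of 5 leukocyte, 2 of 3 adipocyte and 1 of 2 erythroid genes were in the table and all lay at the floor on both arrays. The summed linear signal was 23.7 (Venus High) and 20 (Venus Low) for 2 of 3 endothelial markers, and 35.4 and 32.8 for 3 of 4 fibroblast markers. The 5 alveolar markers are not analysed here.

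As a group, the members differed by about as much as the typical gene that reached a signal of 100 on either array. Over genes that reached it on both arrays, the median difference was 0.38. The respiratory chain had 0.47 and the mitochondrial ribosome 0.42 under that setting. Of the 155 members, 130 reached a signal of 100, which is 83.9%, against 27.7% of all genes in the table. The median difference was 0.47 over the 73 respiratory chain members that reached this signal, 0.01 above the median of all such genes, and 0.42 over the 57 ribosomal members, 0.04 below it. The middle 50% of the respiratory chain members lay between 0.27 and 0.71, and that of the ribosomal members between 0.22 and 0.71, against 0.21 to 0.91 for all genes. A Venus High signal 2-fold or more above that of Venus Low cells was found for 11 of the 130 members, or 8.46%, against 21.6% of all genes that reached a signal of 100 on either array. These were 831 genes, of which 330 had a Venus Low value below 6 on the log2 scale, and among the 3034 genes that reached 100 on both arrays the share past 2-fold was 11.9%. At 1.5-fold there were 45 members, against 41.4% of all genes, and at 4-fold 0 members, against 8.58% of all genes. Of the 130 members, 40 differed by less than 0.31, the pooled SD between probe sets, as did 1373 of the 3847 genes. After median centring 35 of the 130 members and 1387 of the 3847 genes stay above 0, which are those that differ by more than the shift of 0.66. The shift is common to all genes and was taken from a table without lower values, so that a difference stays above 0 or turns negative restates its size and is no evidence for or against its direction.

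**Figure D1:**
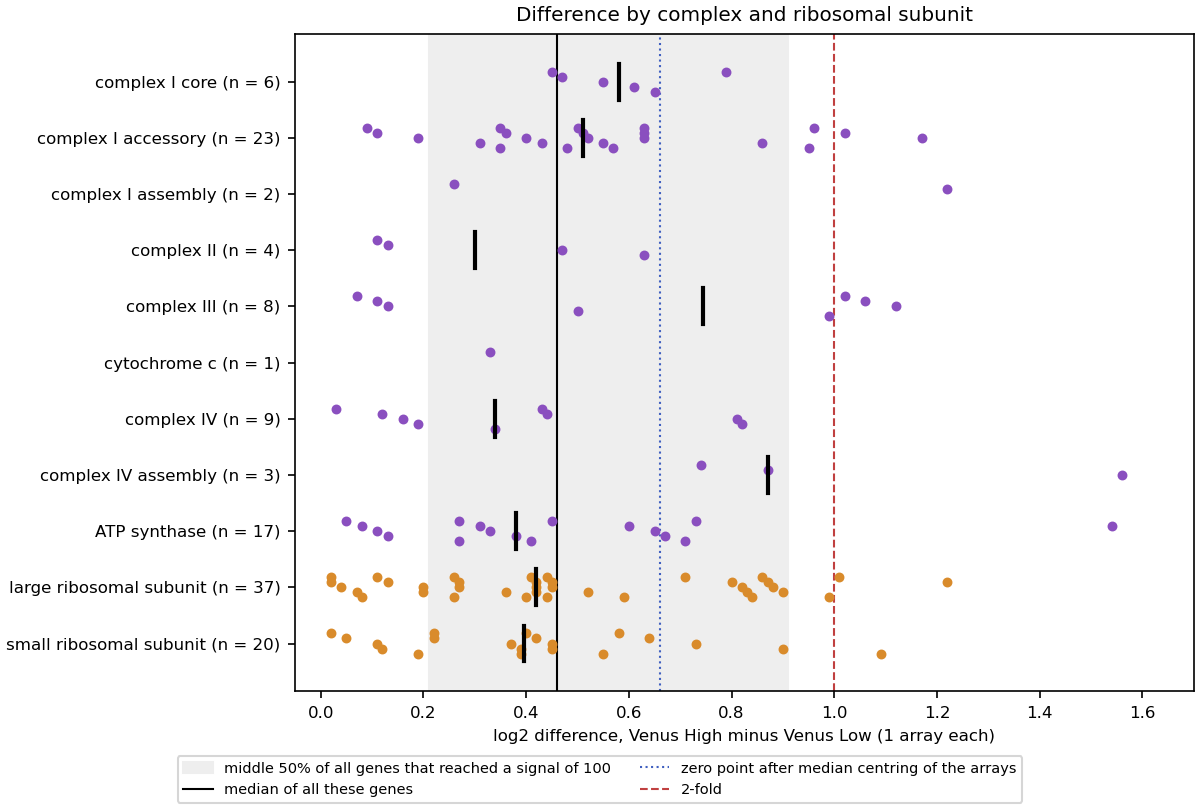
Log2 difference between luminal Venus High and Venus Low cells (horizontal axis, 1 array each) of the 130 members that reached a signal of 100, by complex and ribosomal subunit; 1 point per gene, with a black bar at the median of each class of 3 or more. Most points lie within the middle 50% of all genes (0.21 to 0.91, grey), 11 lie at or beyond 2-fold (dashed line), and points left of the dotted line at 0.66 turn negative after median centring.

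The coverage of the members in this one-sided table was itself uneven. Of 184 annotated protein-coding genes that match the member symbols, 84.2% had a probe set of their own in the table, against 56.8% of all 21900 protein-coding genes. For the respiratory chain these were 91 of 106 genes and for the mitochondrial ribosome 64 of 78. The cytosolic ribosome, which translates the nuclear genes, had 18 of 86, or 20.9%, and the 9 of its genes that reached a signal of 100 had a median difference of 0.19. Of the 29 members without a probe set, 7 were found on probe sets with several symbols and 22 on none. Of the 68 such genes of the cytosolic ribosome, the numbers were 13 and 55. Such a gene may be one that is lower in Venus High cells, one with no probe set for it alone, or one left out for another reason, and this was not tested. Placing the genes without a probe set below every listed member would lower the median to 0.41 for the respiratory chain and to 0.37 for the mitochondrial ribosome.

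Complex I, which oxidizes NADH, had 29 subunit genes that reached a signal of 100, with a median difference of 0.52. The 6 core subunits in the table, which carry the flavin and the iron-sulfur clusters or hold the quinone site, lay close together, between 0.45 and 0.79. Ndufv2 had log2 signals of 10.75 (Venus High) and 9.96 (Venus Low), the largest core difference (1.73-fold). Ndufs1, the largest iron-sulfur subunit, had 8.65 and 7.99, and Ndufs3 had 9.74 and 9.14. All 3 differed by at least 0.60, and of them Ndufv2 alone stays above 0 after median centring, at 0.13. Ndufs8 differed by 0.55, with a range from 0.15 to 0.75 over its 5 probe sets, Ndufs7 by 0.47 and Ndufv1, which binds NADH and flavin, by 0.45.

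The accessory subunits of complex I spread more widely, from 0.09 to 1.17 over 23 genes, with a median of 0.51. Ndufc1, a small membrane subunit, had log2 signals of 11.03 (Venus High) and 9.85 (Venus Low) and was 2.26-fold higher. Its other probe set differed by 1.01, so both were past 2-fold. Ndufv3, a subunit of the NADH-oxidizing arm, had 9.96 and 8.94 (2.03-fold). Just under 2-fold lay Ndufab1, the mitochondrial acyl carrier protein, with 10.29 and 9.34, and Ndufs4, with 9.93 and 8.98. Both genes had a pair of probe sets above a signal of 100, with differences of 0.95 to 0.97. Of the dimmer ones, that of Ndufs4 differed by 1.63 (6.08 in Venus High, 4.46 in Venus Low) and those of Ndufab1 by 0.45 and 0.10. At the other end Ndufa5 differed by 0.09 and Ndufa10 by 0.11, both negative after median centring. Ndufa7 differed by 0.86, with 0.34 to 0.87 over its 5 probe sets, and Ndufa4, which was first assigned to complex I and later found in complex IV, by 0.35. Ndufs5 and Ndufb1 stayed below a signal of 100, at 6.61 and 6.02 in Venus High and 6.23 and 5.59 in Venus Low cells, and Ndufb4 and Ndufa4l2 lay at the floor on both arrays. The accessory subunits Ndufa6, Ndufa11, Ndufb5, Ndufc2 and Ndufs6 are not analysed here.

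Of the complex I assembly factors, which help to build the complex and then leave it, 5 of 8 had a probe set and 2 reached a signal of 100. Ndufaf3 had log2 signals of 8.02 (Venus High) and 6.80 (Venus Low) and was 2.33-fold higher. Ndufaf2 had 7.34 and 7.07. Ndufaf6, Ndufaf7 and Ndufaf8 stayed below the signal of 100 on both arrays, with differences between 0.13 and 0.31. Ndufaf3 is the only one of these 5 that stays above 0 after median centring.

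All 4 genes of complex II, which oxidizes succinate and is also an enzyme of the citric acid cycle, reached a signal of 100, and their median difference of 0.30 lay 0.16 below that of all genes. Sdhd, which anchors the complex in the membrane, had log2 signals of 9.25 (Venus High) and 8.62 (Venus Low). Sdhb, the iron-sulfur subunit, had 10.19 and 9.71. Sdha, the flavoprotein, had 9.64 and 9.53, and Sdhc, the other anchor, 8.10 and 7.96. None of the 4 stays above 0 after median centring. Cycs, which encodes the mobile electron carrier cytochrome c, had 11.69 and 11.36, and its 3 probe sets above a signal of 100 gave differences of 0.26 to 0.39, while a further one lay at the floor on both arrays.

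Complex III, which passes electrons from quinol to cytochrome c, fell into 2 sets of genes with no difference between 0.50 and 0.99. On one side were 4 genes that differed by 0.99 to 1.12. Uqcrq, a small membrane subunit, had log2 signals of 9.85 (Venus High) and 8.73 (Venus Low), 2.17-fold. Uqcr11 had 11.01 and 9.95 (2.09-fold), and Uqcr10 had 10.05 and 9.05 (1.99-fold). These 3 are small proteins of the complex without a redox centre, as are Uqcrb and Uqcrh of the other set. Cyc1, which encodes the heme protein cytochrome c1, had 10.81 and 9.79 (2.03-fold). On the other side, Uqcrfs1, the Rieske iron-sulfur protein, differed by 0.50, Uqcrb by 0.13, Uqcrh, the hinge protein, by 0.11 and the core protein gene Uqcrc2 by 0.07. The other bright probe set of Uqcrb differed by 0.39. Uqcrfs1, Uqcrb, Uqcrh and Uqcrc2 are below the centring shift of 0.66. Uqcrc1, the other core protein gene, is not analysed here. This split was seen in the values and has no test.

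**Figure D2:**
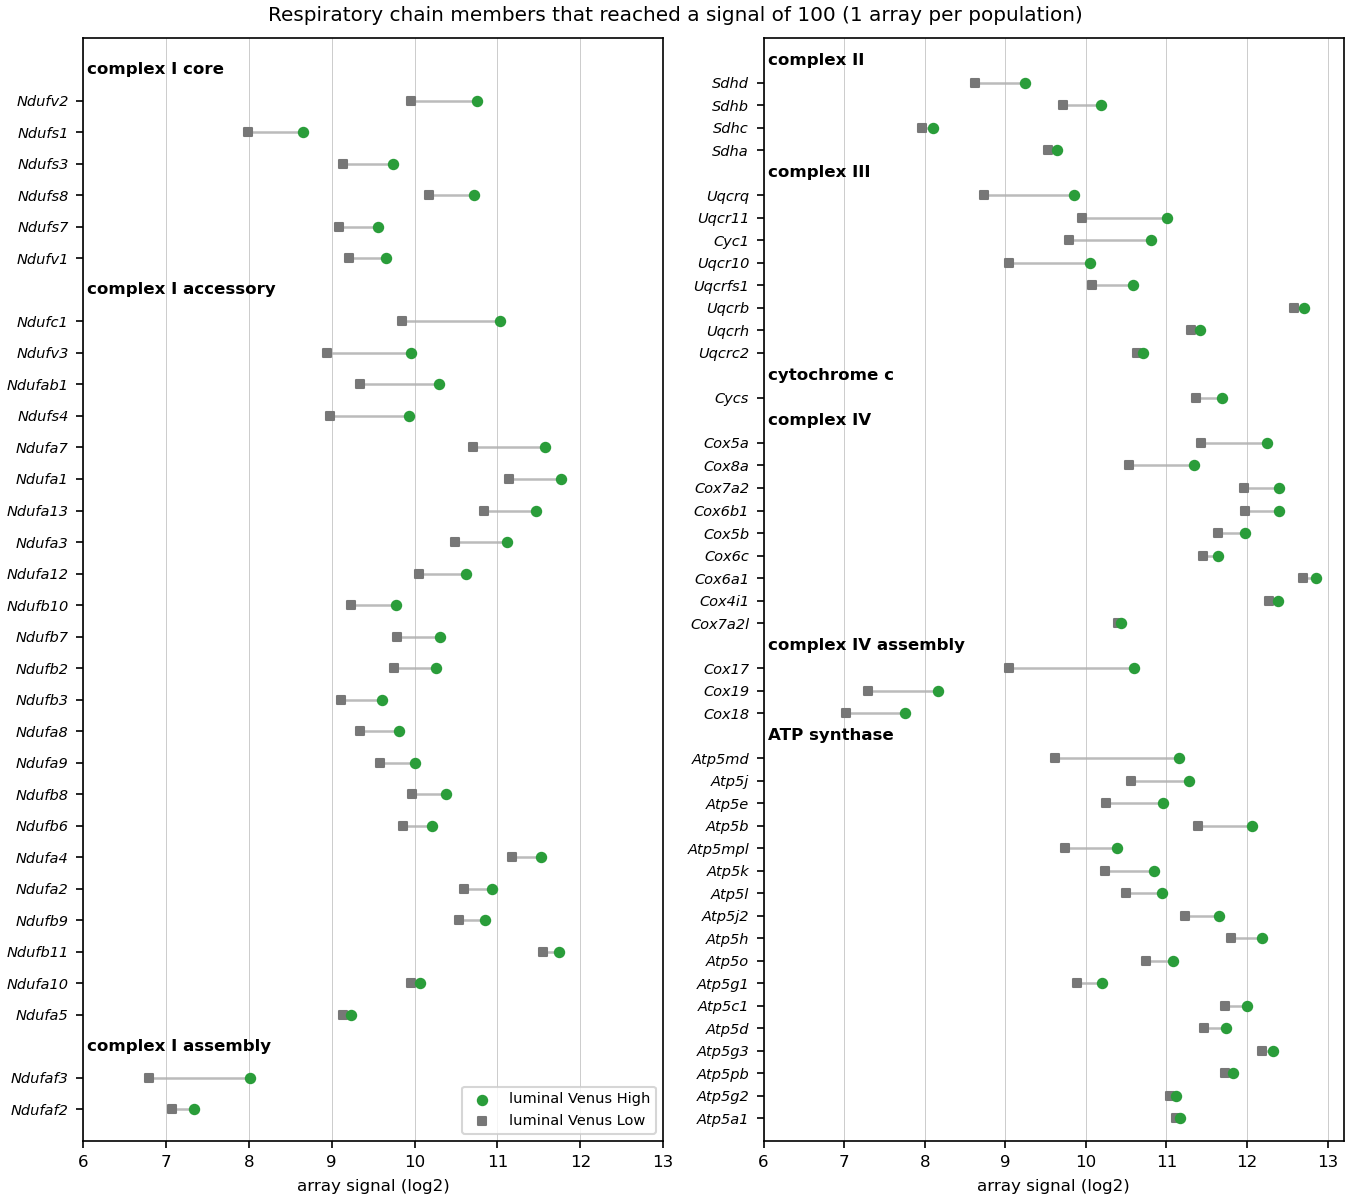
Array signals (log2, horizontal axis) of the 73 respiratory chain members that reached a signal of 100, with green circles for luminal Venus High and grey squares for luminal Venus Low cells, 1 array each, ordered by difference within each complex. The gaps are widest for Cox17 (1.56) and Atp5md (1.54), and every circle lies right of its square because the table holds no lower values; gaps below 0.66 reverse after median centring.

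In complex IV, cytochrome c oxidase, the subunits lay mostly below the median of all genes. The assembly factors among the members that reached a signal of 100, Cox17, Cox18 and Cox19, lay above it. Assembly factors outside the members did not all do so, as Cox20 differed by 0.105, Coa5 by 0.14 and Coa3 by 1.19. The 9 subunit genes that reached a signal of 100 had a median of 0.34, which is 0.12 below that of all genes, and 0 of them were at least 2-fold higher. Against genes of like signal their median was not low. Their Venus Low signals lay above 10 on the log2 scale, where the medians of all genes were 0.32 (10 to 11), 0.33 (11 to 12) and 0.13 (12 upward). Cox5a had log2 signals of 12.25 (Venus High) and 11.43 (Venus Low) on its brightest probe set, a difference of 0.82, and the difference reached 1.14 on another. Cox8a had 11.34 and 10.54. Of the 9, Cox5a and Cox8a alone stay above 0 after median centring. Cox7a2 differed by 0.44, Cox6b1 by 0.43, Cox5b by 0.34 and Cox6c by 0.19. Cox6a1 differed by 0.16 on its brightest probe set and by 0.70 on another. Cox4i1, a large nuclear subunit, had 12.39 and 12.27, and Cox7a2l, which joins complexes III and IV in supercomplexes, had 10.43 and 10.40, the smallest difference of the respiratory chain at 0.03.

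Several complex IV subunits exist as tissue isoforms, and levels of different probe sets were not set against each other. The widely expressed forms Cox4i1, Cox6a1, Cox6b1 and Cox8a reached a signal of 100 on both arrays. Cox4i2, Cox7b2 and the muscle isoform Cox8b lay at the floor of the table in both populations. The heart and muscle isoform Cox6a2 had a log2 signal of 3.92 in Venus High cells and lay at the floor in Venus Low cells. The testis isoform Cox6b2 had 5.50 (Venus High) and 4.49 (Venus Low), and Cox8c had 3.68 in Venus High cells and lay at the floor in Venus Low cells. Cox7c had only dim probe sets in the table, 5.99 (Venus High) and 5.73 (Venus Low) on the brighter one, and Cox7a1 and Cox7b are not analysed here. The 3 genes of the ATP synthase c subunit, which encode the same mature protein, all reached a signal of 100 on both arrays and differed by 0.31 (Atp5g1), 0.13 (Atp5g3) and 0.08 (Atp5g2). Of the other genes with related forms, Mrps18a differed by 0.45 and Mrps18b by 0.37, and Mrps18c is not analysed here.

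The complex IV assembly factors held the largest difference of all members. Cox17, the copper chaperone that supplies the copper centers of complex IV, had log2 signals of 10.60 (Venus High) and 9.04 (Venus Low) and was 2.94-fold higher, or 0.90 on the log2 scale after median centring. This value was read on a probe set of a type that can match several transcripts. A further probe set of Cox17 lay at the floor on both arrays. Cox19, a small cysteine-rich protein of the intermembrane space that also acts in complex IV assembly, had 8.16 and 7.29, and Cox18, which inserts part of the mitochondrially encoded subunit Cox2 into the membrane, had 7.75 and 7.02. All 3 stay above 0 after median centring, Cox18 by 0.08. Cox15, an enzyme of heme A synthesis, stayed below a signal of 100 at 6.15 and 5.74, a difference of 0.41. Its other probe sets, also below that signal, differed by 0.92, 0.71 and 0.02. The probe sets of Cox10, Cox11 and Cox16 were at the floor in both populations, and Cox14 is not analysed here.

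All 17 annotated genes of the ATP synthase reached a signal of 100, and their median of 0.38 was 0.08 below that of all genes. Over genes that reached a signal of 100 on both arrays, as these 17 did, the median was also 0.38. Their Venus Low signals lay above 9 on the log2 scale, where the median of all genes in each signal bin was 0.35 or lower. One gene stood apart. Atp5md, a small subunit linked to dimers of the enzyme, had log2 signals of 11.16 (Venus High) and 9.62 (Venus Low) and was 2.91-fold higher, or 0.88 on the log2 scale after median centring, on its 1 probe set. The next were Atp5j, coupling factor 6 of the stalk, at 11.28 and 10.56, and Atp5e, the epsilon subunit, at 10.96 and 10.25, which differed by 0.73 and 0.71. The catalytic beta subunit gene Atp5b had 12.06 and 11.39, a difference of 0.67, while Atp5a1, the alpha subunit that forms the hexamer with it, had 11.17 and 11.12 and differed by 0.05 and 0.04 on its 2 probe sets. Atp5pb, of the peripheral stalk, differed by 0.11. After median centring 4 of the 17 stay above 0, Atp5md, Atp5j, Atp5e and Atp5b, the last by 0.01.

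Of the mitochondrial ribosome, 37 genes of the large subunit and 20 of the small subunit reached a signal of 100, with medians of 0.42 and 0.40. The large subunit genes fell into 25 that differed by 0.59 or less and 12 that differed by 0.71 or more, with none between. This gap is narrower than the SD of 0.16 between probe sets of the members and has no test. Mrpl15, with 0.42 among the 25, differed by 0.72 on another bright probe set. Mrpl41 had linear signals of 512 (Venus High) and 220 (Venus Low) and was 2.32-fold higher, but its other bright probe set differed by 0.53, and a further one lay at the floor on both arrays. Mrpl20 had log2 signals of 8.61 (Venus High) and 7.60 (Venus Low), 2.02-fold, just past the threshold, and Mrpl57 had 9.50 and 8.50 (1.99-fold), just short of it. The other 9 of these 12 were Mrpl2, Mrpl10, Mrpl22, Mrpl34, Mrpl36, Mrpl40, Mrpl43, Mrpl49 and Mrpl52. They differed by 0.71 to 0.90, though the other bright probe set of Mrpl49 differed by 0.25. At the low end, Mrpl44 and Mrpl50 both differed by 0.02. Mrpl1 and Mrpl35 stayed below a signal of 100, and Mrpl33 and Mrpl47 lay at the floor on both arrays.

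In the small subunit, Mrps34 had log2 signals of 9.79 (Venus High) and 8.70 (Venus Low) and was 2.12-fold higher. Mrps10 had 8.89 and 7.99 and Mrps25 had 7.79 and 7.06. These 3 are the only small subunit genes that reached a signal of 100 and stay above 0 after median centring. Mrps2 differed by 0.02 and Mrps24 by 0.05. All 3 ribosomal genes past 2-fold, Mrpl41, Mrpl20 and Mrps34, were read on probe sets of a type that can match several transcripts. Without such probe sets 0 of the 36 ribosomal genes left were past 2-fold, against 23.1% of all genes under that setting. Mrpl20 and Mrps34 had no other probe set, so that setting leaves them out rather than measuring them again. Mrpl41 alone was read again, with a difference of 0.53. Mrps15, Mrps27 and Mrps31 stayed below a signal of 100 on both arrays. Of the annotated genes, 8 of the large subunit and 6 of the small subunit had no probe set in the table.

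**Figure D3:**
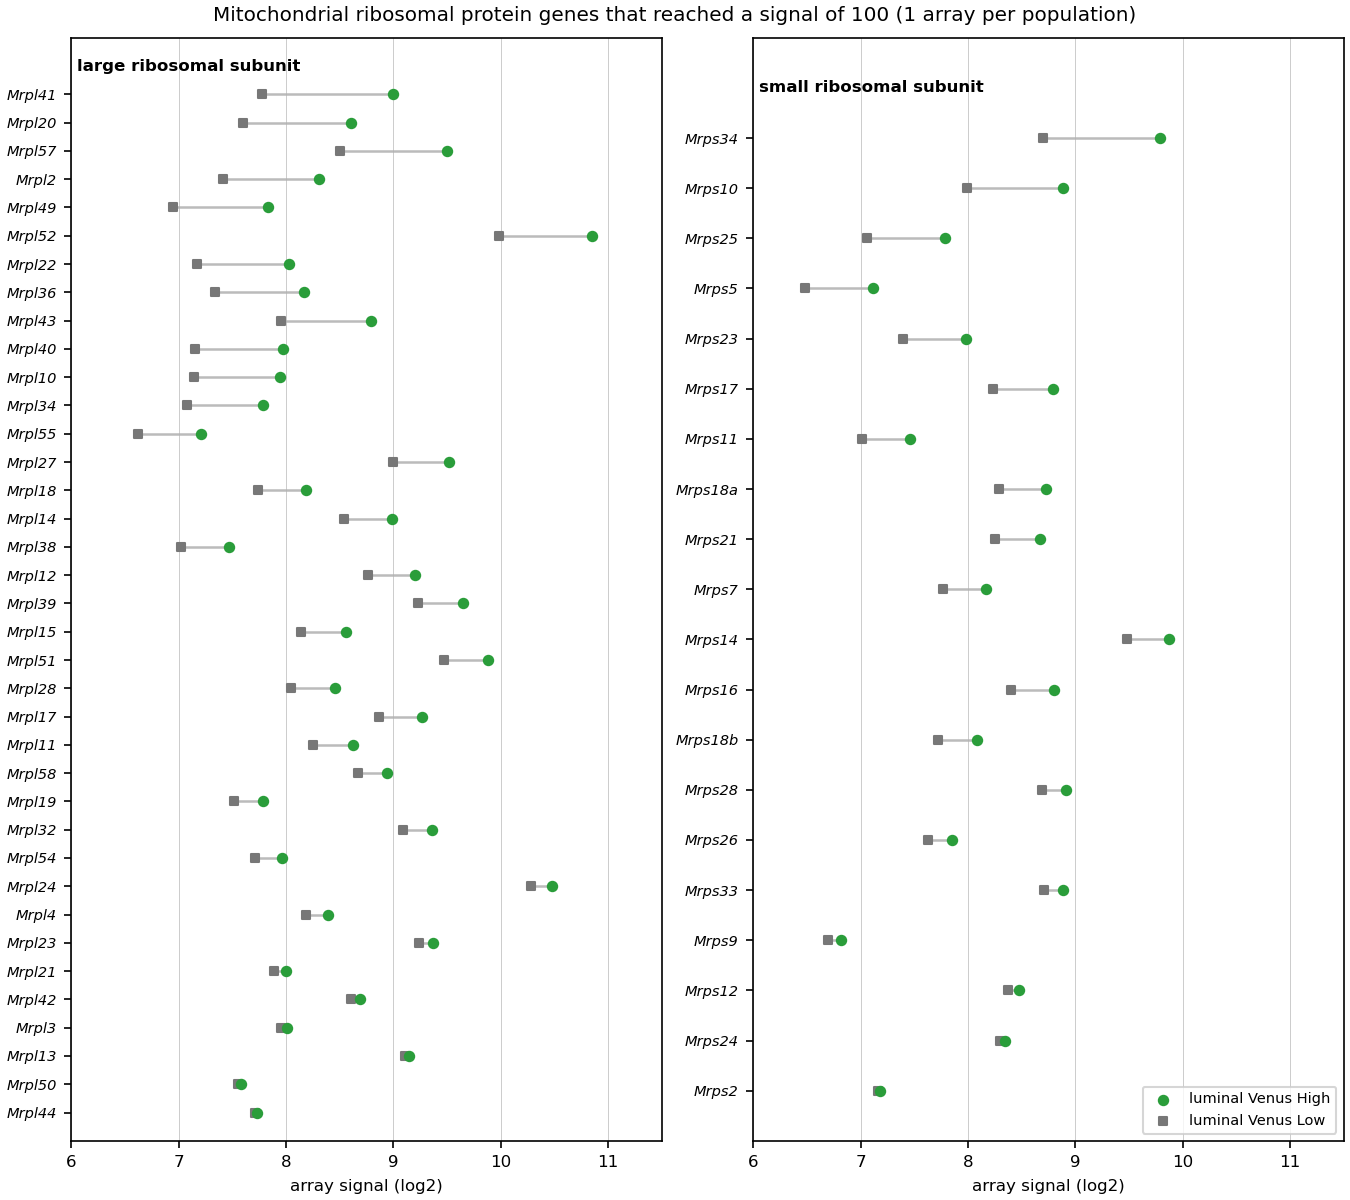
Array signals (log2, horizontal axis) of 37 genes of the large and 20 genes of the small mitochondrial ribosomal subunit that reached a signal of 100, with green circles for luminal Venus High and grey squares for luminal Venus Low cells, 1 array each, ordered by difference. In this one-sided table the widest gaps are those of Mrpl41 (1.22), Mrps34 (1.09) and Mrpl20 (1.01); 12 large and 3 small subunit genes have gaps above 0.66, the ones that stay positive after median centring.

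The 11 members past 2-fold were Cox17, Atp5md, Ndufaf3, Mrpl41, Ndufc1, Uqcrq, Mrps34, Uqcr11, Cyc1, Ndufv3 and Mrpl20. Only Ndufc1 and Mrpl41 among them had more than 1 probe set above a signal of 100. Like the ribosomal genes, Cox17, Uqcrq, Ndufv3 and Ndufc1 were read on probe sets of a type that can match several transcripts. Over the 46 members with several probe sets of any type above a signal of 100, the median range of differences within a gene was 0.13. The range exceeded 0.5 in 5 genes, Mrpl41, Mrpl49, Ndufs8, Cox6a1 and Ndufa7.

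The size of a difference went with the Venus Low signal, and the members were compared with other genes of like signal. Since the Venus Low signal is itself subtracted to form the difference, this trend is in part built in. Among genes with a Venus Low signal of 6 to 8 on the log2 scale, the 6 respiratory chain members had a median difference of 0.70 and all 1957 genes, these members included, 0.46. From 8 to 9, the 4 members had 0.98, with 2 past 2-fold, and all 757 genes 0.38, with 11.9% past 2-fold. From 9 to 10, the 25 members had 0.51 and all 455 genes 0.35. The medians of the respiratory chain thus lay above those of all genes in each of these bins, though few members fill the first pair. From 10 to 11, the 16 members had 0.56 and all 205 genes 0.32. From 11 to 12, the 18 members and all 93 genes both had 0.33, and from 12 upward the 4 members, Uqcrb, Cox4i1, Cox6a1 and Atp5g3, and all 25 genes both had 0.13. In the other bins, respiratory chain members past 2-fold were 16.7% from 6 to 8, 20% from 9 to 10 and 0 from 10 upward. All genes had 17.5% and 10.5% in the first 2 of these bins and 8.78% from 10 to 11. For the mitochondrial ribosome, the 29 members between 6 and 8 had a median of 0.58 and all 1957 genes 0.46. The 19 members between 8 and 9 had 0.40 and all 757 genes 0.38. Ribosomal members past 2-fold were 6.9% from 6 to 8, 5.26% from 8 to 9 and 0 of 8 from 9 to 10, below the shares of all genes. No member that reached a signal of 100 had a Venus Low value below 6, where the 355 genes in the table had a median of 2.47. A gene below 6 in Venus Low cells could enter only if its Venus High signal reached 100. The large differences there thus follow in part from the selection.

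**Figure D4:**
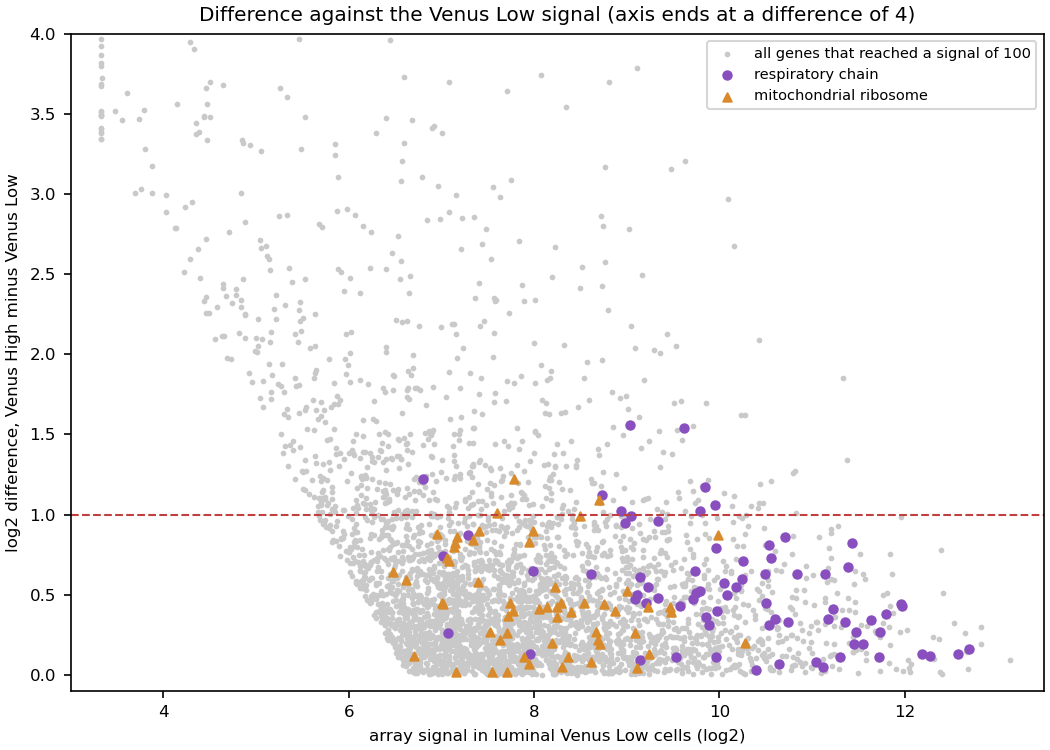
Log2 difference between luminal Venus High and Venus Low cells (vertical axis, ends at 4) against the log2 signal in Venus Low cells (horizontal axis), with 1 point per gene that reached a signal of 100; purple circles are respiratory chain members, orange triangles mitochondrial ribosomal members and grey points all genes. The members lie at Venus Low signals above 6, all with differences below 2, and the 4 with a Venus Low signal above 12 differ by 0.12 to 0.16, which reverses after median centring.

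Other genes of the same organelle were set beside the members. Of 29 assembly genes of complexes I to IV and the ATP synthase that do not carry member symbols, 22 had a probe set and 9 reached a signal of 100, with a median difference of 0.87. Sdhaf4, an assembly factor of complex II, had log2 signals of 8.49 (Venus High) and 6.02 (Venus Low), 5.55-fold. Coa3, which acts in the first steps of complex IV assembly, had 9.84 and 8.64, and Uqcc2, which does so for complex III, had 9.30 and 8.12, so 3 of the 9 were past 2-fold. At the other end Coa5 differed by 0.14 and Uqcc3 by 0.07, both negative after median centring.

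Of 22 genes of the citric acid cycle and of pyruvate dehydrogenase and its kinases, 12 reached a signal of 100, with a median of 0.38 and 0 past 2-fold. Mdh2 (0.86), Ogdh (0.74) and Fh1 (0.72) differed most, and Idh3b (0.05) least. Of 23 protein import genes, 16 reached a signal of 100, with the same median of 0.38. Tomm40, the channel of the outer membrane, had log2 signals of 7.61 (Venus High) and 6.25 (Venus Low), 2.57-fold, and Timm8b (0.97) and Timm17b (0.76) followed.

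Of 19 regulators of mitochondrial biogenesis and genes of mitochondrial DNA upkeep, 12 reached a signal of 100, with a median of 0.36. Twnk, the helicase that replicates mitochondrial DNA, had log2 signals of 8.35 (Venus High) and 5.95 (Venus Low), 5.26-fold, and Polg2 (0.75) and Polrmt (0.72), subunits of the mitochondrial DNA and RNA polymerases, followed. Tfam, which packages mitochondrial DNA, differed by 0.31, Esrra, the estrogen-related receptor alpha, by 0.18 and Gabpb1, a subunit of GABP, by 0.11, all negative after median centring. Of 19 translation factors of mitochondria, 9 reached a signal of 100, with a median of 0.24. Ddx28, a helicase of ribosome assembly, had 6.93 and 5.30 (3.09-fold), and Tsfm (0.65) and Tufm (0.62), both elongation factors, followed. Of the genes past 2-fold in these lists, Sdhaf4, Twnk, Tomm40 and Ddx28 lay below a signal of 100 in Venus Low cells.

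NRF1, the estrogen-related receptors (ERR) and GABP are transcription factors known to act on nuclear genes of mitochondrial proteins, so RefSeq promoters (GRCm38.p6, 250 bases before to 50 after the gene start) were searched on both strands for short forms of their motifs. Promoters were found for 72 respiratory chain and 56 ribosomal members. GCATGCGC, the core of the NRF1 motif, was in 11.1% and 12.5% of them, against 6.68% of the 3172 genes with a promoter that reached a signal of 100 and 3.05% of all 27025 genes. CCGGAAGT, the GABP motif, was in 11.1% and 16.1%, against 11.3% and 4.31%. TCAAGGTCA, the ERR motif, was in 2 respiratory chain promoters, or 2.78%, and in 0 of the ribosomal ones, against 0.252% and 0.466%. These are matches of letters, not sites. Of the 7 members past 2-fold that had a promoter, Uqcr11 alone held an NRF1 or a GABP match. Both matches of Uqcr11 lie apart. Printed here are windows around the matches of Uqcr11, around both ERR matches and around the match of Cycs, known from the rat as an NRF1 target. All are on the minus strand, written 5′ to 3′ of the gene, with the matched letters in capitals.
Uqcr11: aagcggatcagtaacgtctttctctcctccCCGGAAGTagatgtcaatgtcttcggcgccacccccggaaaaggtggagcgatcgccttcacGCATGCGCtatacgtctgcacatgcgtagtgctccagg
Cycs: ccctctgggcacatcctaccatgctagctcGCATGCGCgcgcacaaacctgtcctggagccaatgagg
Sdhd: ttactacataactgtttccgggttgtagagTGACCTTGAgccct
Atp5g3: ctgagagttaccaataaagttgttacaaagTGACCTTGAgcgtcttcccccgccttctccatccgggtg
The windows lie at chr10:80406788-80406917 for Uqcr11, chr6:50566592-50566659 for Cycs, chr9:50603800-50603843 for Sdhd and chr2:73911340-73911408 for Atp5g3. The NRF1 core starts 4 bases before the gene start in Uqcr11 and 60 before it in Cycs, and the ERR motif, read here on its other strand, starts 52 bases before the start of Atp5g3 and 36 after that of Sdhd. Uqcr11 differed by 1.06 between Venus High and Venus Low cells, against 0.33 for Cycs, 0.63 for Sdhd and 0.13 for Atp5g3, and of these Uqcr11 alone stays above 0 after median centring.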

How the data were processed

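The authors hybridized labelled cRNA from 250 ng of total RNA (RNA integrity number above 9.4) of each population to 1 array, log2-transformed the signals and normalized and centred them per sample in BRB Array software. The submitters' processing notes name MAS5. The deposited log2 values have no stated scaling reference, so whether both arrays share a scale is unknown. The table holds 29338 probe sets, 12968 higher in Venus High cells, 16370 at the floor on both arrays and 0 lower. The platform annotation pairs 22223 with 1 symbol, 602 with several, and does not list 6513. Gene identifiers were looked up in RefSeq (GRCm38.p6) for current symbols, and 22060 of the 22223 matched. The probe set of highest mean log2 value stood for a gene with several. A member was counted at a difference of at least 1, where the higher signal was at least 100. No test was run.

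Members, lists and the rule for named genes were chosen with earlier results of these data known. The rule named members at least 2-fold higher, up to 3 with the largest and 2 with the smallest difference in each class, all complex I core and complex II subunits, cytochrome genes, tissue isoforms, and up to 3 genes of each comparison list with the largest difference. Genes named beyond it were chosen after their values were seen. Alternatives covered scaling, floor, probe sets, signal minimum, threshold and symbols. A signal of 100 on both arrays, and the placing of genes without a probe set, were added after seeing the data. The computation was tested on simulated data and run in Python 3.11.15 (pandas 2.3.3, numpy 2.4.6, with figures by matplotlib 3.10.9).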

Additional observations from a re-analysis of the deposited data

How the results depend on the processing

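Both scalings turn the medians negative for the members and for all genes alike, which follows from shifting a table that holds no lower values. With each array centred on its median, the median difference was -0.19 for the respiratory chain and -0.24 for the mitochondrial ribosome (all genes, -0.20), and with quantile normalization -0.21 and -0.25 (all genes, -0.22). Under both, 0 members of either group were past 2-fold, against 8 respiratory chain and 3 ribosomal members in the deposited values, while 10.9% and 10.6% of all genes were. Without the probe sets of types _a_at, _s_at and _x_at, which can match several transcripts, 6 of 49 respiratory chain and 0 of 36 ribosomal members were past 2-fold (23.1% of all genes). Of the ribosomal members past 2-fold, Mrpl20 and Mrps34 have no other probe set and are absent under this setting. A 1.5-fold threshold gave 28 and 17 (41.4% of all genes) and a 4-fold threshold 0 and 0. Other floors, signal minimums, the median over probe sets, platform symbols, a signal of 100 on both arrays and, for the medians, placing genes without a probe set below the listed members moved the members' own medians by less than the SD of 0.31 between probe sets and the counts by no more than 1.5 times. The distance to the median of all genes moved more. With a floor at 100 the respiratory chain lay 0.08 and the ribosome 0.03 above it. With a signal of 100 on both arrays these distances were 0.10 and 0.04. Without a signal minimum they were 0.40 and 0.38, and the median of all genes was 0.02. No paired analysis was possible because each population has 1 array. With 1 array per population, the spread between pools of mice is unknown.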

Other observations

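Glycolysis, which yields ATP in the cytosol, was set beside the mitochondrial genes. Of 17 glycolytic genes, 8 reached a signal of 100 (9 had a probe set), with a median log2 difference of 0.53 between Venus High and Venus Low cells, 0.07 above that of all genes. Pgam1, a phosphoglycerate mutase, had log2 signals of 9.81 (Venus High) and 8.47 (Venus Low) (2.53-fold), and Pkm, a pyruvate kinase, had 9.86 and 8.74 (2.18-fold). Tpi1, triosephosphate isomerase, had 11.21 and 10.21, a difference of 0.99. Pgk1 differed by 0.06, which is negative after median centring. The 8 genes without a probe set of their own, Ldha and Eno1 among them, are not analysed here.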
